A study of Mus musculus with 9 samples.

Results

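The insulin-like growth factor system was described through 9 mouse genes given by symbol: the ligand genes Igf1 and Igf2, the receptor genes Igf1r and Igf2r, and the binding protein genes Igfbp2, Igfbp3, Igfbp4, Igfbp5 and Igfbp7. All 9 were matched by symbol among the 54232 Ensembl genes counted in each file. RNA came from wild-type CD1 mouse cells labelled as cortical neurons, in 9 libraries that form 3 groups of 3 repeats. The control libraries carry the name PDL, which the labels do not spell out. The PA libraries carry the name IKVAV, a laminin sequence, and PA stands for peptide amphiphile, a peptide with a fatty tail that forms fibres in water. The PA + PS2 libraries carry the name IKVAV plus PEDOT-S-OH, and PEDOT polymers conduct electricity. The treatment field reads peptide amphiphile in all 9 libraries, so the groups were taken from the titles, and no age, dose or time is given. The labels do not say whether repeats were separate cultures, so every p-value rests on library-to-library spread that may be only technical.

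Igf1 and Igf2 are small secreted growth factors. Both act through the tyrosine kinase encoded by Igf1r, which feeds the PI3K and AKT pathway that supports survival and growth of neurons, while the receptor encoded by Igf2r carries mannose 6-phosphate-tagged enzymes to lysosomes and clears Igf2 from the cell surface. The binding proteins hold the ligands in the fluid or at the matrix and can block or prolong their action, and Igfbp7 is a more distant relative with weak affinity for them. In the brain, meninges and choroid plexus are known sources of Igf2, and Igf1 is made by some neurons and by microglia.

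The 250 bases upstream of the RefSeq start are shown for Igfbp2, Igfbp5 and Igfbp7, the members lower in every PA + PS2 library than in every control library, picked for display after their values were seen. They come from the RefSeq promoter table for GRCm38.p6, which held windows for all 9 members, and are written 5′ to 3′ on the strand of the gene. The windows are chr1:72824230-72824479 on the plus strand, chr1:72874866-72875115 on the minus strand and chr5:77408046-77408295 on the minus strand.
Igfbp2: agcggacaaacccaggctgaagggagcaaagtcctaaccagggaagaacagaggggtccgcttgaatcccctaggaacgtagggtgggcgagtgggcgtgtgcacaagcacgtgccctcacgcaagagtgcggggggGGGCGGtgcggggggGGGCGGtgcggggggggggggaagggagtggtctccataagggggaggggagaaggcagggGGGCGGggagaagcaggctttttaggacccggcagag
Igfbp5: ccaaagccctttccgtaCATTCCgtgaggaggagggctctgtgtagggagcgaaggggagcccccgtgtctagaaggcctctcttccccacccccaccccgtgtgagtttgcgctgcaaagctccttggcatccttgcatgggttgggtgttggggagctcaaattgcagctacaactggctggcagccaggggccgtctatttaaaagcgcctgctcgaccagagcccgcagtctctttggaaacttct
Igfbp7: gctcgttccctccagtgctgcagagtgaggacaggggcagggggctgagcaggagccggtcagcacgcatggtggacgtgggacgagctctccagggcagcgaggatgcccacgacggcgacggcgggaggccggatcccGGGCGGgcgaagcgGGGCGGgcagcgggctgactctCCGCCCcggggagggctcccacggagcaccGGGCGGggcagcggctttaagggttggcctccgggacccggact
Capitals mark matches, on either strand, to 5 motifs: GGGCGG (Sp1), TATAAA (the TATA box), GGAATG (TEAD), TGANTCA (AP-1) and CCAAT (the CAAT box). Igfbp2 held 3 copies of GGGCGG and Igfbp7 held 4, while Igfbp5 held none and carried a single GGAATG, read on the other strand as CATTCC. Among 32851 windows of the same length in the table, 32.7% held GGGCGG and 12.6% held GGAATG. Of the windows of the 9 members, 4 held GGGCGG, among them Igf2r with 3 copies and Igf1r with 2, which are not shown. The Igfbp2 and Igfbp7 windows were 67.2% and 74% G or C, beside a median of 52.4% over all windows. The TATA box (12.4% of windows), AP-1 (6.75%) and CAAT box (33.8%) motifs had no match in the 3 windows. Each of the 3 windows holds matches to a single motif, so none overlaps another, and a match describes only the letters. Igfbp2 and Igfbp5 are neighbours on chromosome 1 of mm10, at 72824503 to 72852474 on the plus strand and 72857932 to 72874884 on the minus strand, so their 3′ ends face each other across 5.46 kb. Igfbp7 lies on chromosome 5 at 77349240 to 77408041.

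The libraries held 20746851 to 27237398 counts each. Levels are in CPM, counts scaled to a common library size with TMM factors, and are given with the standard deviation (SD) over 3 libraries. The 10 neuronal markers were detected in every library, with sums of 5592 to 6777 CPM and groups that overlapped. Log2 fold changes with their standard errors (SE) come from the quasi-likelihood test of edgeR fitted to 15712 genes in all 9 libraries, and a gene passed at a Benjamini-Hochberg adjusted p under 0.05. Of the 9 members, 8 met the count filter and were tested, and Igf2 did not. Same-numbered libraries shared part of their deviation in both comparisons with control, so for those a second fit, blocked by repeat number, is given where it changed a call. The comparisons share libraries and are not independent of each other.

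Compared per kilobase of exon, Igfbp2 had the highest level of the 9 genes in all 9 libraries, at a mean of 49.1 CPM per kb with a range of 35.3 to 63.9. This places it at percentile 94.8 of the tested genes. Igfbp5 (12.9 CPM per kb), Igfbp3 (11.4) and Igf2r (11.2) followed, in an order that differed between groups. Igfbp5 was above Igfbp3 in 6 of 9 libraries, which were all the control and PA libraries, and above Igf2r in the same libraries. In PA + PS2 repeats 1, 2 and 3, Igfbp5 (7.51, 10.5 and 10.1) lay below Igf2r (10.1, 11.2 and 10.2). Igfbp3 was above Igf2r in 4 of 9 libraries. Igf1r came next at 9.4 CPM per kb, under Igf2r in 9 of 9 libraries. Igfbp4 stood at 5.3 CPM per kb and Igfbp7 at 3.66, and their order held in 6 of 9. Igf1, at 1.08 CPM per kb, was below Igfbp7 in 8 of 9 libraries, and Igf2 was lowest in all 9 at 0.0639. Lengths are unions of all annotated exons in GENCODE M21, which may be longer than the transcripts the cells use.

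**Figure D1:**
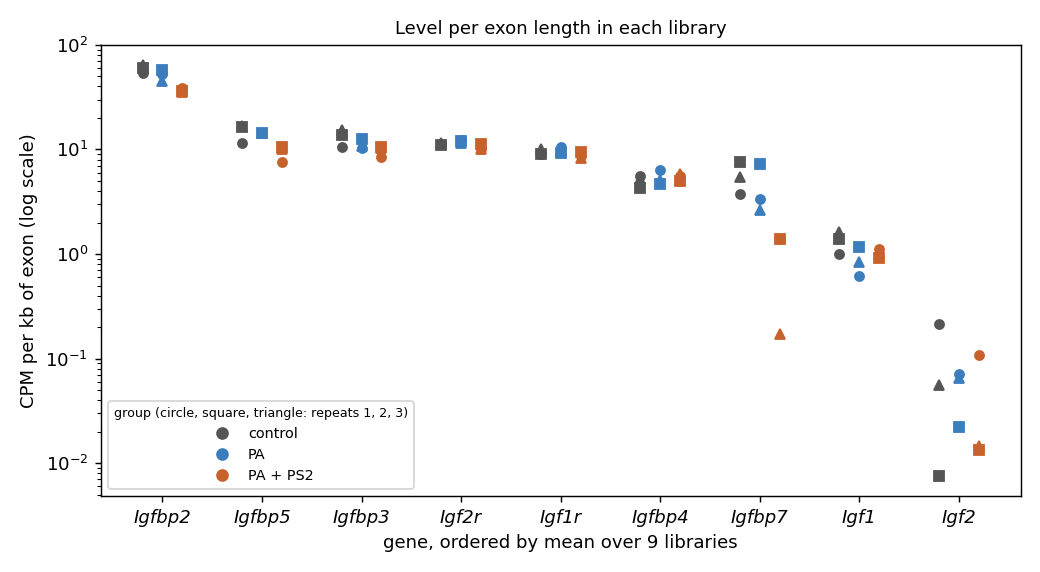
Level of each gene in CPM per kb of exon, on a log axis, with 1 point per library, colour for the group and symbol shape for the repeat. Igfbp2 lies on top in every library, from 35.3 to 63.9, and Igf2 at the bottom, with Igfbp7 spread most among the tested genes, from 0.172 to 7.62.

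The ligand Igf1 (chromosome 10, 87858265 to 87937042) was measured at 9.86, 13.8 and 16.3 CPM in control repeats 1, 2 and 3. It stood at 6.12, 11.6 and 8.27 CPM in PA and at 11.1, 9.1 and 9.85 CPM in PA + PS2. The 3 groups overlapped, and the lowest value was that of PA repeat 1. Its log2 fold change was −0.61 ± 0.24 (SE) in PA against control (edgeR adjusted p = 1, with an unadjusted edgeR p of 0.0254). For PA + PS2 against control it was −0.41 ± 0.24 (edgeR adjusted p = 1), with a 95% interval of −0.93 to 0.11, and without control repeat 3 it was −0.24. Within repeats 1, 2 and 3 the log2 ratio to control was −0.69, −0.24 and −0.97 for PA and 0.17, −0.60 and −0.72 for PA + PS2.

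The ligand Igf2 (chromosome 7, 142650766 to 142666816) was close to the detection limit. It had 30, 1 and 7 reads in control repeats 1, 2 and 3, 9, 3 and 10 in PA, and 13, 2 and 2 in PA + PS2. Control repeat 1 and PA + PS2 repeat 1 held the highest counts, so repeats of a group differed by more than the groups did. These counts are uncertain as a level, because 62.8% of the annotated exon bases of Igf2 are shared on the same strand with Gm49394, which had 0 counts in every library. HTSeq by default gives a read in such shared exons to neither gene, and the setting used is not given in the sources used here. Igf2os, on the other strand, had 0 to 8 reads, and H19, the imprinted noncoding neighbour of Igf2, had 0.665 to 2.95 CPM.

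The receptor genes varied least. Igf1r (chromosome 7, 67952827 to 68233668) stood at 152, 152 and 172 CPM in control, 178, 156 and 167 CPM in PA, and 146, 160 and 139 CPM in PA + PS2. Its log2 fold change was 0.07 ± 0.10 (SE) in PA against control, with a 95% interval of −0.14 to 0.28. For PA + PS2 against control it was −0.10 ± 0.10, with a 95% interval of −0.31 to 0.12. The groups overlapped in each comparison. Igf2r (chromosome 17, 12682406 to 12769664) stood at 105, 103 and 106 CPM in control, 114, 112 and 106 CPM in PA, and 94.5, 104 and 95.3 CPM in PA + PS2. All 3 PA + PS2 libraries lay below all 3 PA libraries, while PA + PS2 repeat 2 lay within the control range. The log2 fold change was −0.17 ± 0.08 against PA (edgeR adjusted p = 0.937) and −0.10 ± 0.09 against control (1).

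**Figure D2:**
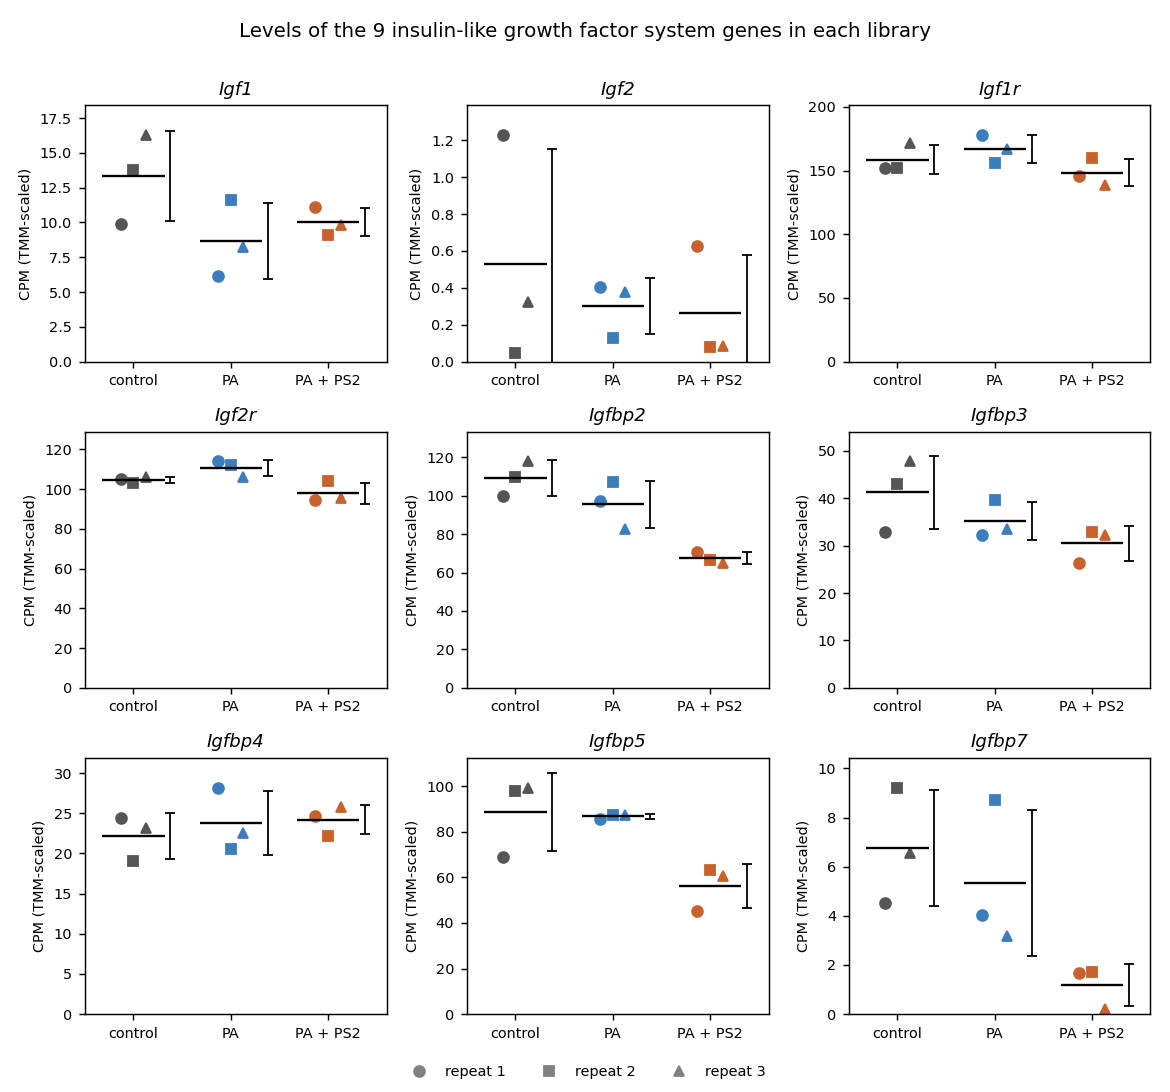
CPM of each of the 9 genes by group, with 1 point per library (circle, square and triangle for repeats 1, 2 and 3), a line at the group mean and a bar of 1 SD, which is cut at 0 for Igf2. Igfbp2, Igfbp5 and Igfbp7 are lower in all 3 PA + PS2 libraries than in all other libraries, while Igf1r and Igfbp4 overlap between all groups.

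Igfbp2, which carries an RGD integrin-binding motif beside its ligand-binding domains, stood at 99.7, 110 and 118 CPM in control repeats 1, 2 and 3. It stood at 97.2, 107 and 82.5 CPM in PA and at 70.8, 66.7 and 65.2 CPM in PA + PS2. The 3 PA + PS2 libraries lay below all 6 others and within a narrow range. The group means were 109 ± 9.18 CPM (SD, n = 3) in control and 67.6 ± 2.85 CPM in PA + PS2, a log2 fold change of −0.69 ± 0.11. This missed the threshold in edgeR (adjusted p = 0.0537) and passed in the blocked fit (0.0129). Within repeats 1, 2 and 3, the log2 ratio of PA + PS2 to control was −0.49, −0.72 and −0.86. Without the block, Igfbp2 passed when control repeat 1 (0.0149), PA repeat 1 (0.0483) or PA repeat 3 (0.0429) was left out (edgeR adjusted p). The blocked call ended when control repeat 2 (0.0551) or 3 (0.0963), or repeat 2 (0.0853) or 3 (0.0732) of PA + PS2, was left out.

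Igfbp5, a binding protein that attaches to extracellular matrix, stood at 69.1, 97.7 and 99.4 CPM in control repeats 1, 2 and 3. It stood at 85.5, 87.3 and 87.4 CPM in PA and at 45.1, 63 and 60.5 CPM in PA + PS2. All 3 PA + PS2 libraries were below the other 6, and repeat 1 was lowest in control as well as in PA + PS2. The log2 fold change of PA + PS2 against control was −0.66 ± 0.15 (adjusted p of 0.161 in edgeR and of 0.0161 in its blocked fit). The within-repeat log2 ratios were −0.62, −0.63 and −0.72. Without the block, Igfbp5 passed when control repeat 1 was left out (edgeR adjusted p = 0.017). The blocked call ended when control repeat 2 (0.0957) or 3 (0.15), or repeat 2 (0.0735) or 3 (0.0828) of PA + PS2, was left out.

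Igfbp7, a secreted protein known from blood vessels and stroma, stood at 4.52, 9.22 and 6.54 CPM in control repeats 1, 2 and 3. It stood at 4.05, 8.71 and 3.19 CPM in PA and at 1.68, 1.7 and 0.208 CPM in PA + PS2. Repeat 2 was highest in each group, and PA + PS2 repeat 3 held only 5 reads, with an exact 95% Poisson interval of 1.62 to 11.7 for counting error only. The log2 fold change of PA + PS2 against control was −2.50 ± 0.57 (adjusted p of 0.151 in edgeR and of 0.0186 in its blocked fit). The within-repeat log2 ratios were −1.42, −2.44 and −4.97. The blocked call ended when control repeat 2 (0.0621) or 3 (0.0757), or repeat 2 of PA + PS2 (0.0977), was left out, and without PA + PS2 repeat 3 the value was −2.10 (edgeR adjusted p = 0.0465). On the other strand, Polr2b overlaps 7.03% of the exon bases of Igfbp7. It had 2485 to 3955 reads per library, and whether the counting used strand is not given in the sources used here.

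Igfbp3, the main carrier of ligand in serum, stood at 32.8, 43.1 and 47.8 CPM in control, 32.3, 39.7 and 33.6 CPM in PA, and 26.3, 32.9 and 32.3 CPM in PA + PS2. Control repeat 1 lay within the PA + PS2 range, so the groups overlapped, while the within-repeat log2 ratios of PA + PS2 to control were −0.32, −0.39 and −0.57. The log2 fold change of PA + PS2 against control was −0.44 ± 0.15 (adjusted p of 0.496 in edgeR and of 0.0802 in its blocked fit), and the blocked fit passed it when PA repeat 1 was left out (0.0233). Igfbp4, the binding protein cut by the protease encoded by Pappa, stood at 24.4, 19 and 23.2 CPM in control, 28.2, 20.6 and 22.5 CPM in PA, and 24.6, 22.2 and 25.8 CPM in PA + PS2. Its log2 fold change was 0.13 ± 0.15 in PA + PS2 against control, with a 95% interval of −0.19 to 0.44.

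**Figure D3:**
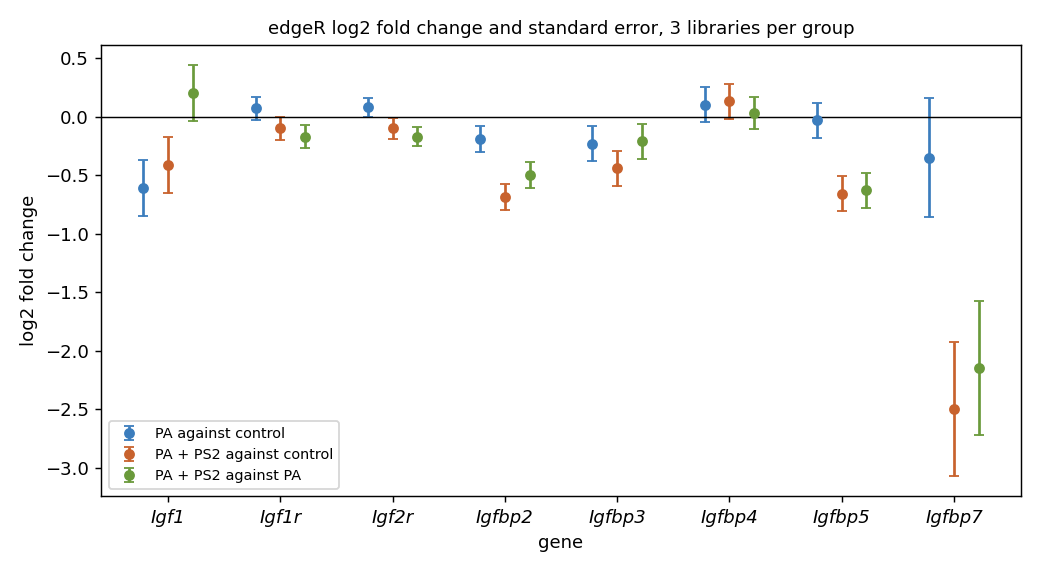
Log2 fold change of the 8 tested genes in the 3 comparisons, with bars of 1 SE from the edgeR fit. In PA + PS2 against control, Igfbp7 stands at −2.50, Igfbp2 at −0.69 and Igfbp5 at −0.66, and the receptor genes and Igfbp4 lie within 0.13 of 0.

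PA against control asked how the peptide scaffold alone related to these genes. Of the 8 tested members 0 passed, beside 0% of all genes. At an unadjusted edgeR p under 0.05 there was 1 member, Igf1, against 1.22% of all genes, and DESeq2 also passed 0 genes. The members had a median log2 fold change of −0.11, beside −0.01 for all genes, and 5 of 8 were below 0, beside 52.8% of all genes. Igfbp2 stood at −0.19 ± 0.11 (−0.29 without PA repeat 2 and −0.09 without PA repeat 3) and Igfbp5 at −0.03 ± 0.15, and 0 of 8 members were lower without overlap, beside 2.07% of all genes.

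PA + PS2 against control asked the same of the scaffold with both components. Again 0 of 8 members passed in edgeR, where 0.0446% of all genes passed. In the blocked fit, 3 of 8 members passed (Igfbp2, Igfbp5 and Igfbp7), all lower, beside 1.17% of all genes in either direction and 1.06% lower. DESeq2 passed 2 members, Igfbp2 and Igfbp5, beside 1.51% of the genes it gave an adjusted p, and gave Igfbp7 an adjusted p = 0.0533. At an unadjusted edgeR p under 0.05 there were 4 members, against 5.63% of all genes. Groups did not overlap for 3 of 8, all lower, where 6.54% of all genes were lower without overlap. The median of the members was −0.42, beside −0.00 for all genes, and 7 of 8 were below 0, beside 50.2% of all genes. The summed level of the 5 binding protein genes was 97.7 ± 11.1 CPM per kb in control and 62.2 ± 1.23 in PA + PS2 (SD, n = 3). Igfbp2 made up 58.6% to 63.3% of this sum in control and 56.9% to 62.6% in PA + PS2. The share of Igfbp4 was 4.23% to 6.49% in control and 7.9% to 9.47% in PA + PS2. A share also depends on the other genes of the sum. The level of Igfbp4 itself overlapped between the groups, at 5.02 ± 0.65 CPM per kb in control and 5.48 ± 0.422 in PA + PS2.

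PA + PS2 against PA asked what differed when PS2 was added to the scaffold. Of the 8 members 0 passed in edgeR, beside 0% of all genes, with 3 at an unadjusted p under 0.05 against 5.61% of all genes. DESeq2 passed 2 members, beside 0.939% of the genes it gave an adjusted p. The blocked fit, which passed 0.363% of all genes here, is given with the dependence on processing. The log2 fold change was −0.50 ± 0.11 for Igfbp2 (edgeR adjusted p = 0.247), −0.63 ± 0.15 for Igfbp5 (0.302) and −2.15 ± 0.57 for Igfbp7 (0.34). Groups did not overlap for 4 of 8 members, these 3 and Igf2r, all lower, where 6.32% of all genes were lower without overlap. Igf1 stood at 0.20 ± 0.24 and Igfbp4 at 0.03 ± 0.14, and the median of the members was −0.19, beside 0.01 for all genes.

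Summed markers of fibroblast, mural and meningeal, dividing, endothelial and microglial cells were lower in PA + PS2 than in control. Those of astrocytes, the oligodendrocyte lineage and choroid plexus overlapped between these groups. The 13 markers of fibroblasts, mural cells and meninges summed to 142 to 205 CPM in control, 94.7 to 168 in PA and 14 to 59.7 in PA + PS2. Of the 11 tested, 11 were below 0 in PA + PS2 against control, with a median of −1.70. In edgeR 0 passed (9 at an unadjusted p under 0.05), against 5, all lower, in the blocked fit. Of all genes, 50.2% were below 0, 0.0446% passed in edgeR, 5.63% had an unadjusted edgeR p under 0.05 and 1.06% passed lower in the blocked fit. Control repeat 2 and PA repeat 2 had the highest sums of their groups, as they had for Igfbp7. PA + PS2 repeat 3 had the lowest sum of all libraries and the fewest Igfbp7 reads. Within PA + PS2 the sum was highest in repeat 1 (59.7 CPM), while Igfbp7 was highest in repeat 2 (1.7 CPM, beside 1.68 in repeat 1). Acta2, a smooth muscle actin gene, had 79 ± 27.6 CPM in control and 16.8 ± 11.1 in PA + PS2. Aldh1a2 was at 0 in 4 libraries. The 5 markers of dividing cells summed to 66.8 to 178 CPM in control, 89.8 to 153 in PA and 44.6 to 61.2 in PA + PS2. Their sum was lowest in repeat 1 of each group. Igfbp5 was also lowest in repeat 1 of each group, but its PA libraries hardly differed (85.5, 87.3 and 87.4 CPM). Of the 5 dividing-cell markers, 0 passed in edgeR in PA + PS2 against control (5 at an unadjusted p under 0.05, beside 5.63% of all genes). In the blocked fit 3 passed, all lower, beside 1.06% of all genes.

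Endothelial markers summed to 6.86 to 9.94 CPM in control, 5.6 to 8.38 in PA and 2.62 to 5.29 in PA + PS2, with Cldn5 and Tie1 at 0 in 8 of 9 libraries. Microglial markers summed to 11.7 to 12.4 CPM in control, 8.53 to 11.3 in PA and 7.17 to 9.76 in PA + PS2, with P2ry12 at 0 in 7. Astrocyte markers summed to 160 to 264 CPM in control, 208 to 248 in PA and 164 to 198 in PA + PS2. Slc1a2 was the largest part of this sum, at 136 ± 12.6 CPM in control and 129 ± 6.51 in PA + PS2. Of the 7 tested in PA + PS2 against control, 5 were below 0, beside 50.2% of all genes, and 0 passed in either fit. Gja1 stood at −1.06 ± 0.26 and Aldh1l1 at −0.84 ± 0.33, while Gfap, at 0.824 ± 0.72 CPM in control, stood at 1.76 ± 0.69. Oligodendrocyte lineage markers summed to 48.7 to 70.4 CPM in control, 56.7 to 63.4 in PA and 42.7 to 60.9 in PA + PS2. Of these 6, 2 passed lower in the blocked fit of PA + PS2 against control, beside 1.06% of all genes. Choroid plexus markers summed to 3.83 to 35.9 CPM in control, 3.81 to 12.1 in PA and 13.2 to 30.7 in PA + PS2. All 3 PA + PS2 libraries lay above all 3 PA libraries, with Kcnj13 at 0 in 5 libraries. Ttr was the largest part of this sum, at 19.6 ± 8.04 CPM in PA + PS2 and 6.25 ± 4.27 in PA. Of the 5 tested in PA + PS2 against PA, 0 passed in either fit. There, 1 was below 0 (Otx2, −0.37 ± 0.44), beside 48.6% of all genes. The part of these cells in the levels of Igfbp2, Igfbp5 and Igfbp7 was not tested. In bulk RNA, fewer cells of a type and less RNA per cell cannot be told apart.

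**Figure D4:**
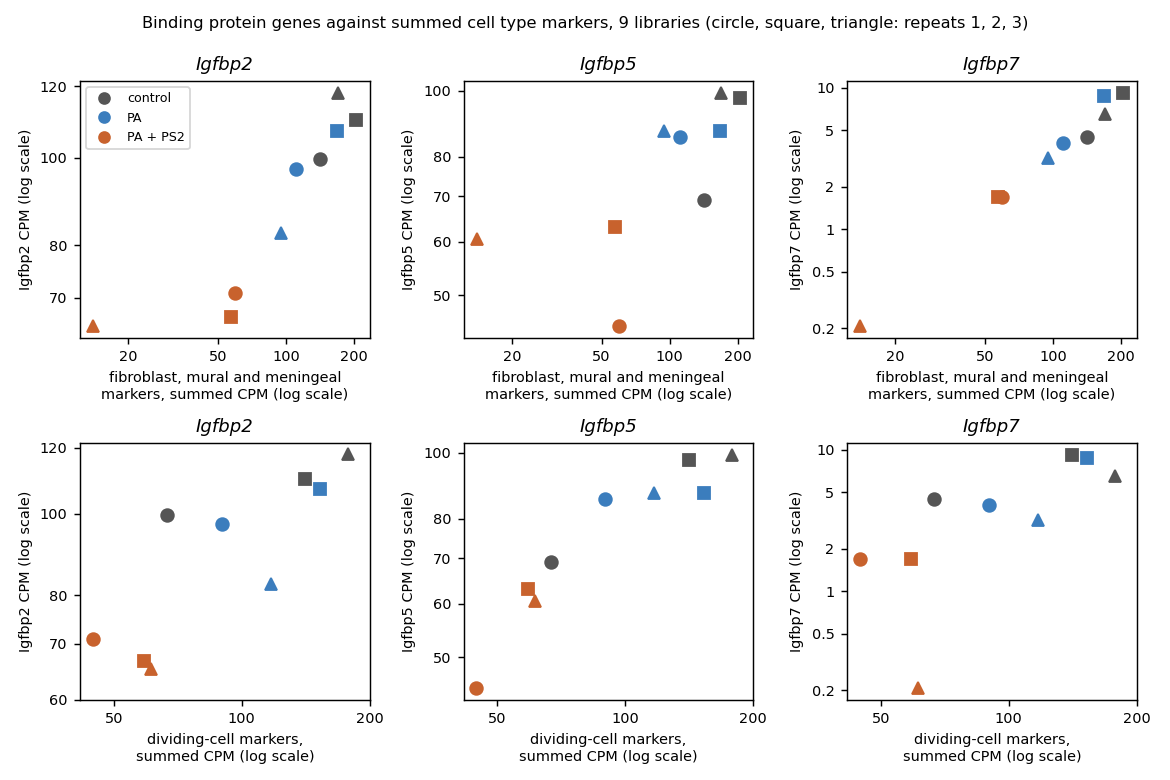
CPM of Igfbp2, Igfbp5 and Igfbp7 against the summed CPM of the fibroblast, mural and meningeal markers (top) and of the dividing-cell markers (bottom), with all axes on log scales and 1 point per library. The 3 PA + PS2 libraries are at the lower left in each panel, with PA + PS2 repeat 3 at 14 CPM of the fibroblast, mural and meningeal markers and 0.208 CPM of Igfbp7.

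The wider pathway was read from 49 other genes, of which 42 were tested. Against control, PA had 0 of 42 passing in edgeR, blocked or not, with 0 at an unadjusted p under 0.05 and 0 in DESeq2. The smallest p there belonged to H19 (−0.72 ± 0.40), Pappa (−0.82 ± 0.54), Htra1 (−0.30 ± 0.23) and Tsc1, a brake on mTOR (0.10 ± 0.08), each with an edgeR adjusted p = 1. Pappa was low, at 0.615 ± 0.354 CPM in PA and 1.1 ± 0.329 in control. For PA + PS2 against control, 0 passed in edgeR and 5 had an unadjusted p under 0.05, where 5.63% of all genes had one. DESeq2 passed 2 of the 42, beside 1.51% of the genes it gave an adjusted p. The blocked fit passed 2, both lower, beside 1.17% of all genes. The median of the 42 was −0.04, with 27 below 0, beside 50.2% of all genes. The first, Prss23, is a secreted serine protease. It stood at 0.778 ± 0.0501 CPM in PA + PS2 and 3.01 ± 0.71 in control, at −1.94 ± 0.32 (adjusted p of 0.0586 in edgeR and of 0.0148 in its blocked fit). The second, Grb10, is an imprinted adaptor that binds the insulin and Igf1 receptors and damps their signal. It stood at 35.6 ± 2.63 and 52.4 ± 10 CPM, at −0.56 ± 0.15 (adjusted p of 0.227 in edgeR and of 0.0239 in its blocked fit).

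The list read here as binding-protein proteases and their inhibitors had 7 of 8 genes below 0 in PA + PS2 against control. Its median was −0.60, and 50.2% of all genes were below 0. In PA against control 7 of 8 were also below 0, with a median of −0.09. Prss23 was counted in this list, and whether it cuts a binding protein was not tested. Within the list, Htra1, a secreted protease, stood at −0.79 ± 0.24 in PA + PS2 against control (edgeR adjusted p = 0.319). Pappa2, which cuts Igfbp3 and Igfbp5, stood at −1.05 ± 0.38 (edgeR adjusted p = 0.542). Its level was low, at 0.609 ± 0.235 CPM in PA + PS2 and 1.26 ± 0.351 in control. Stc2, an inhibitor of the Pappa proteases, stood at −0.17 ± 0.23. The 20 genes of the PI3K, AKT, mTOR and FOXO pathway had a median of 0.01, with 9 of 20 below 0, 0 passing in either fit and 0 at an unadjusted edgeR p under 0.05. Among receptors and adaptors, Insr, the insulin receptor gene, stood at −0.07 ± 0.10, Irs1 at −0.11 ± 0.10 and Irs2 at 0.12 ± 0.11. The 3 genes for proteins that bind Igf2 mRNA had a median of −0.09. Igfbpl1, a related gene of immature neurons, had 150 to 264 CPM and stood at 0.16 ± 0.18 (edgeR adjusted p = 1), while Igfbp1, Igfbp6 and Igfals had at most 8 reads in any library. Against PA, 0 of 42 passed in edgeR for PA + PS2, with 3 at an unadjusted p under 0.05, beside 5.61% of all genes. DESeq2 passed 1, beside 0.939% of the genes it gave an adjusted p. The smallest p belonged to Prss23 (−1.70 ± 0.32, edgeR adjusted p = 0.237), Pappa2 (−1.23 ± 0.38, 0.448), Grb10 (−0.42 ± 0.15, 0.592) and Htra1 (−0.49 ± 0.24, 0.937).

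The genes whose levels ran most like those of a member were taken as the 3 with the highest Pearson r over the 9 libraries, from 10334 protein-coding genes of at least 5 CPM on average. The r values describe these 9 libraries, which share their groups, repeats and scaling. Igfbp2 ran with Palld (r = 0.98), Lgals1 (0.98) and Cnn2 (0.97). Igfbp5 ran with Numb (0.98), Dock1 (0.98) and Cdc20 (0.97), and Igfbp7 with Col4a1, Ccn2 and St5 (0.99 each). Igfbp3 ran with Cdk6 (0.96), Grb10 (0.94) and Msn (0.94). Igf1r ran with Mid1 (0.92), Irs1 (0.92) and Prdm11 (0.91), and Igf2r with Scn8a (0.94), Sdk2 (0.93) and Kremen1 (0.92). Igf1 ran with Tctex1d2 (0.94), Mcm8 (0.93) and Slc25a40 (0.93). Among the members themselves, Igfbp2 and Igfbp7 had the highest r (0.88), followed by Igfbp3 with Igfbp5 (0.85) and by the neighbours Igfbp2 and Igfbp5 (0.81).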

How the data were processed

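The authors deposited unnormalized counts of reads for each Ensembl gene, in 1 file per library. The submitters' processing notes list the tools STAR 2.7.5, HTSeq 2.0.2, cutadapt 4.2 and DESeq2 1.14.1, and the build mm10. Their settings, the strand handling and the annotation used are not given in the sources used here. Names came from the gene table and positions from GENCODE M21 (mm10), which matched 54165 of 54232 identifiers.

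Genes were kept by filterByExpr (minimum count 10, minimum total 15), which left 15712 genes with 99.9% of the counts. With edgeR 4.0.16 (R 4.3.3), a 2-sided quasi-likelihood F test was fitted to all 9 libraries by group, with TMM (trimmed mean of M values) scaling and 6 residual degrees of freedom, and p-values were adjusted by Benjamini and Hochberg over all genes tested. The SE was obtained by dividing the size of the log2 fold change by the root of F. CPM uses TMM-scaled library sizes, and a level of 10 reads or fewer has wide counting error.

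The repeat numbers were checked for pairing by the correlation, across genes, of deviations from the group means. For same-numbered libraries these were 0.422, 0.365 and 0.28 in PA and control, and 0.183, 0.217 and 0.135 in PA + PS2 and control. In PA + PS2 and PA they were 0.0147, 0.292 and 0.302, and for repeat 1 a library of another number reached 0.142. For this comparison the block therefore stands only with the dependence on processing. The block was 1 fit over all 9 libraries, so the same repeat terms also stand behind the blocked calls against control. This pairing comes from the data alone, as no label explains the repeat numbers.

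The members and lists were chosen with earlier results of these data known. All 9 members were named. The genes most like Igfbp4 are not reported here. Pathway genes named are those with the smallest p (up to 4 per comparison), those passing with or without the block, and overlapping neighbours. The genes Stc2, Insr, Irs1, Irs2, Igfbpl1, Acta2, Slc1a2, Gja1, Aldh1l1, Gfap, Ttr and Otx2 were named after their values were seen. Alternatives were RLE size factors, no low-count filter, DESeq2 1.42.0, the repeat block, a fit of only the groups compared, and leaving out each library. Leaving out each library in the fit with the block was added after seeing the data.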

Additional observations from a re-analysis of the deposited data

How the results depend on the processing

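Each result was recomputed with RLE size factors, without the low-count filter, with DESeq2, with the repeat block, in a fit of only the 2 groups compared and without each library in turn. In PA against control, genes passing went from 0 to 23 without the filter and stayed at 0 in the other settings, and members and pathway genes stayed at 0 in all. In PA + PS2 against control, genes passing went from 7 to 17 with RLE, 365 without the filter, 232 with DESeq2, 184 with the repeat block and 28 with 2 groups, and ranged from 0 to 175 without single libraries, the highest without control repeat 1 (12 to 433 with the block). Members passing went from 0 to 1 with RLE, 3 without the filter, 2 with DESeq2, 3 with the block and 1 with 2 groups, and ranged from 0 to 2 without single libraries (0 to 4 with the block). Pathway genes passing went from 0 to 2 without the filter, 2 with DESeq2, 2 with the block and 1 with 2 groups, and ranged from 0 to 2 (0 to 3 with the block). In PA + PS2 against PA, genes passing went from 0 to 330 without the filter, 136 with DESeq2 and 57 with the block, and ranged from 0 to 37 (1 to 226 with the block). There, members passing went from 0 to 3 without the filter, 2 with DESeq2 and 1 with the block (Igfbp5, edgeR adjusted p = 0.0354), and ranged from 0 to 0 (0 to 3 with the block). Pathway genes passing went to 1 in each of these settings and ranged from 0 to 0 (0 to 2 with the block). The cause of these shifts was not tested.

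Signs changed only when single libraries were left out. Ranges in PA against control were −0.04 to 0.18 for Igfbp4, −0.18 to 0.06 for Igfbp5 (−0.17 to 0.07 with the block) and −0.74 to 0.05 for Igfbp7 with the block, where without the block it ranged from −0.91 to −0.05. In PA + PS2 against PA they were −0.05 to 0.17 for Igfbp4 (−0.04 to 0.13 with the block) and −0.04 to 0.53 for Igf1 with the block. In PA + PS2 against control, each of the 8 tested members kept its sign in these settings: Igfbp2 ranged from −0.75 to −0.63, Igfbp5 from −0.81 to −0.51 and Igfbp7 from −2.87 to −1.99 without single libraries. The block changed no call of a member in either comparison with control other than those of Igfbp2, Igfbp5 and Igfbp7. Depth limits Igf2 (1 to 30 reads) and Igfbp7 in PA + PS2 repeat 3 (5 reads).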
